A study of Mus musculus with 2 samples.

Results

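Periportal sinusoidal endothelial cells of the control library were taken as the barcodes of the endothelial gate that held at least 2 unique molecular identifiers (UMIs, each marking 1 captured mRNA molecule) of *Efnb2*, *Adgrg6* and *Dll4* together and no UMI of *Vwf*, *Gja5*, *Fbln2*, *Wnt2* or *Rspo3*. The endothelial gate asked for at least 1500 UMIs, at least 750 genes, at least 2 UMIs of *Pecam1*, *Cdh5* and *Ptprb* together, and 0 UMIs of *Ptprc*, *Adgre1*, *Cd79a* and *Dcn*. It was met by 4306 of the 5664 control barcodes, and 763 of these were periportal (17.7%, 95% exact binomial interval 16.6 to 18.9). They were compared with 2543 pericentral barcodes of the same gate, which had a *Wnt2* UMI and no *Vwf* UMI. A further 851 in-between barcodes held no *Vwf* or *Wnt2* UMI and were not periportal. This in-between class is what the rules left over and not a shown middle zone. Periportal and pericentral are names of gates on marker genes, and no position in the lobule was measured here.

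Liver sinusoidal endothelial cells (LSECs) of control mice and of *Maf* LSEC-KO mice were profiled by droplet 3′ single-cell RNA-seq, to ask how loss of the transcription factor c-Maf changes these cells. Each group was 1 library from the pooled livers of 3 mice, enriched for endothelium by a density gradient and CD146 magnetic beads. The control is labelled wild type, and by the study's methods it came from littermates that lacked the *Clec4g*-iCre transgene and carried 1 or 2 floxed *Maf* alleles. The *Maf* LSEC-KO mice carried 2 floxed *Maf* alleles and *Clec4g*-iCre, which is active in LSECs, and the labels give neither age nor sex. With 1 library per group no difference could be tested, and every interval below covers counting error only, not the spread between mice. Intervals of CPM and of log2 ratios rest on UMIs summed over barcodes, so they also leave out the spread between barcodes.

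LSECs line the capillaries of the liver lobule, through which blood runs from the portal triad to the central vein. Endothelial cells near the central vein secrete the Wnt ligands that keep neighbouring hepatocytes in their pericentral state, whereas the portal end receives oxygen-rich arterial blood and is known for arterial-type genes of the Notch and ephrin systems. *Dll4* encodes a Notch ligand, *Efnb2* the arterial ephrin-B2, and *Adgrg6* an adhesion G protein-coupled receptor that binds basement membrane collagen.

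The periportal barcodes carried 6896314 UMIs in all, with a median of 8505 UMIs and 3066 genes per barcode. The pericentral barcodes were deeper, with a median of 9854 UMIs and 3406 genes, and the in-between barcodes were shallow, with 3829 UMIs and 1662 genes. The nuclear-retained RNAs *Malat1* and *Neat1* had a median share of 2.50% in periportal and 2.07% in pericentral barcodes, as percent of UMIs left after mitochondrial and ribosomal protein genes were set aside. Over the summed UMIs the 2 RNAs took 2.76% and 2.37%, a ratio of 1.16 (1.16 to 1.17). That difference lay in the shallow barcodes, since the ratio was 1.41 in barcodes below and 1.01 in barcodes above the median UMIs of the endothelial gate. Mitochondrial UMIs had a median share of 4.27% and 3.98%. The gate itself depended on depth, because both a marker UMI and a *Wnt2* UMI are found more often in a deep barcode. With the endothelial gate cut into 4 equal sets from shallow to deep, periportal barcodes made up 13.7%, 22.1%, 20.2% and 14.9%, and pericentral barcodes 34.4%, 56.5%, 69.1% and 76.2%. With 4 such sets by nuclear RNA share, from low to high, periportal barcodes made up 11.2%, 18.2%, 20.4% and 21.1%. Only 1 periportal barcode sequence also occurred in the other library, of 10 sequences that the libraries shared.

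**Figure D1:**
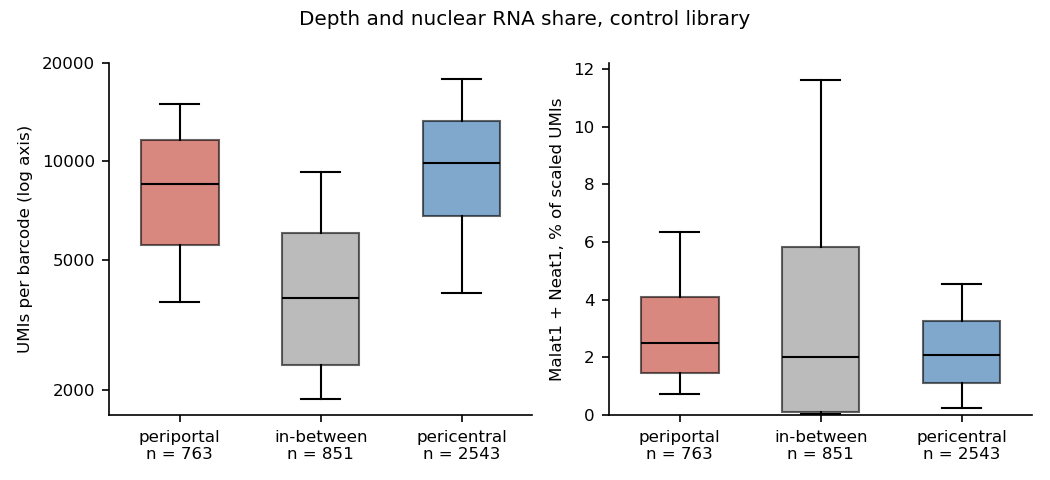
UMIs per barcode (left, log axis) and the share of *Malat1* and *Neat1* in percent (right) in the 3 classes of control endothelial barcodes. Boxes span the 25th to 75th percentiles with the median as a line, and whiskers reach the 10th and 90th percentiles of barcodes. Periportal and pericentral barcodes overlap widely in both measures, and in-between barcodes are shallower.

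The values of the 3 markers in the members follow from the rule and are given as a description. *Efnb2* (chr8:8617434-8661242, mm10) was read at 290 CPM (UMIs of a gene scaled to a common total, mitochondrial and ribosomal protein genes left out of that total) and *Dll4* (chr2:119325784-119335962) at 255 CPM. *Adgrg6* (chr10:14402583-14545659) was read at 93.3 CPM, and pericentral barcodes held 101, 106 and 6.16 CPM of *Efnb2*, *Dll4* and *Adgrg6*. Most members were carried by 2 of the markers, with 390 holding *Efnb2* and *Dll4* without *Adgrg6*, 122 all 3 genes, 100 *Dll4* alone and 77 *Efnb2* alone. *Adgrg6* was found in 25.7% of members, beside 84.4% for *Dll4* and 81.7% for *Efnb2*. Leukocyte barcodes of the same library, which should lack the 3 genes, had a UMI of *Dll4* in 6.45%, of *Efnb2* in 3.23% and of *Adgrg6* in 1.61% of 62 barcodes. Their median was 4365 UMIs. They were chosen by leukocyte genes and by no UMI of *Pecam1*, *Cdh5* or *Ptprb*. That choice left out barcodes with such endothelial RNA, so these shares, and that of *Cd34* below, can understate the background. The absence of *Wnt2* decided most of the gate, since 1126 of the 1975 endothelial barcodes with at least 2 marker UMIs also held *Wnt2*. Among pericentral barcodes 43.3% (41.3 to 45.2) had at least 2 marker UMIs, against 50.6% (48.1 to 53.0) of endothelial barcodes without *Wnt2*. Many barcodes thus carried genes of both classes.

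Each marker was also read in barcodes that it had not helped to choose. In 720 barcodes chosen with *Efnb2* and *Dll4* alone, *Adgrg6* stood at 81.3 CPM against 6.16 in the pericentral barcodes, a log2 ratio of 3.72 (3.45 to 3.995). *Efnb2* in 525 barcodes chosen without it was at 266 CPM, a log2 ratio of 1.39 (1.29 to 1.49). *Dll4* in 488 barcodes chosen without it was at 231 CPM, a log2 ratio of 1.12 (1.01 to 1.23). Each marker was thus higher in barcodes chosen by the other 2 and by the absence of the excluded genes. When the UMIs were split at random into 2 sets, with the gates set on one and the levels read in the other, the log2 ratios were 4.40, 1.54 and 1.07 for *Adgrg6*, *Efnb2* and *Dll4*. In that held-out set *Wnt2* was still read at 67.4 CPM, in 139 of the 663 barcodes called periportal, against 390.4 CPM in pericentral barcodes. A barcode without a *Wnt2* UMI is therefore not shown to be a cell without *Wnt2*.

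Of 6940 genes outside the rule with at least 20 CPM in either class, 99 (1.43%) were at least 1.5-fold higher and 112 (1.61%) at least 1.5-fold lower in periportal than in pericentral barcodes, and the median log2 ratio was −0.02. Against the in-between barcodes, 49 of 7035 genes (0.697%) were higher and 116 (1.65%) lower by the same limit. The 12 genes with the largest ratio among those of at least 50 CPM were *Igfbp5*, *Slc45a4*, *Ednrb*, *Cd34*, *Mecom*, *Msr1*, *Plac8*, *Efnb1*, *Fabp1*, *Ntn4*, *Galnt15* and *Serpina1e*. *Msr1*, a macrophage-type scavenger receptor, had the most UMIs of these and was at 776 CPM in periportal, 430 CPM in in-between and 261 CPM in pericentral barcodes, a log2 ratio of 1.57 (1.52 to 1.63). *Ntn4*, a secreted netrin of the basement membrane, was at 569, 300.2 and 235 CPM in the same order, a log2 ratio of 1.28 (1.22 to 1.34). *Efnb1*, a second transmembrane ephrin-B, was at 447, 270.1 and 171 CPM, a log2 ratio of 1.39 (1.32 to 1.46). *Mecom*, a zinc finger transcription factor, was at 157, 95.8 and 48.5 CPM, a log2 ratio of 1.69 (1.57 to 1.82). In all 4 genes the in-between barcodes stood between both ends. *Slc45a4*, a solute carrier, was at 59.6 CPM against 5.14 CPM, a log2 ratio of 3.54 (3.24 to 3.84), with a UMI in 19.3% and 2.60% of barcodes (12.1% and 1.07% at 3600 UMIs per barcode). *Cd34*, a sialomucin of continuous capillaries that LSECs largely lack, was at 68.4 CPM against 18.5 CPM, a log2 ratio of 1.89 (1.69 to 2.09), and 28.7% of members held a UMI against 11.2% of pericentral barcodes (14.7% and 4.57% at 3600 UMIs) and 1.61% of leukocyte barcodes. *Igfbp5*, which binds insulin-like growth factors, had the largest ratio, 3.97 (3.66 to 4.30), but 4.33% of members held a UMI and 5 barcodes held 53.9% of them, and the in-between barcodes stood higher, at 109 CPM. *Fabp1* and *Serpina1e* are made by hepatocytes, and hepatocyte RNA is treated below.

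The 12 genes with the smallest ratio were *Hbb-bt*, *Hbb-bs*, *Hba-a1*, *Hba-a2*, *Cdh13*, *Kit*, *Jup*, *Lfng*, *Ackr4*, *Lgals1*, *Rnase4* and *Rarb*. The 4 hemoglobin genes rest on single barcodes, since 10 pericentral barcodes held 99.5% of the erythroid UMIs of that class, and among barcodes above the median nuclear RNA share the 4 ratios turned to between 0.70 and 1.13. *Kit*, the stem cell factor receptor and a landmark of central LSECs, was at 91.3 CPM in periportal, 188 CPM in in-between and 457 CPM in pericentral barcodes, a log2 ratio of −2.32 (−2.45 to −2.20). *Cdh13*, a GPI-anchored cadherin, was at 27.1 CPM against 190.3 CPM, a log2 ratio of −2.81 (−3.05 to −2.59). *Lgals1*, the lectin galectin-1, was at 189 CPM against 518 CPM, a log2 ratio of −1.45 (−1.54 to −1.37). *Lfng*, a glycosyltransferase that modifies Notch receptors, was at 13.9 CPM against 51.4 CPM, a log2 ratio of −1.89 (−2.23 to −1.57). The junction protein gene *Jup*, the chemokine scavenger *Ackr4*, the ribonuclease *Rnase4* and the retinoic acid receptor *Rarb* had log2 ratios of −1.93, −1.51, −1.44 and −1.44.

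**Figure D2:**
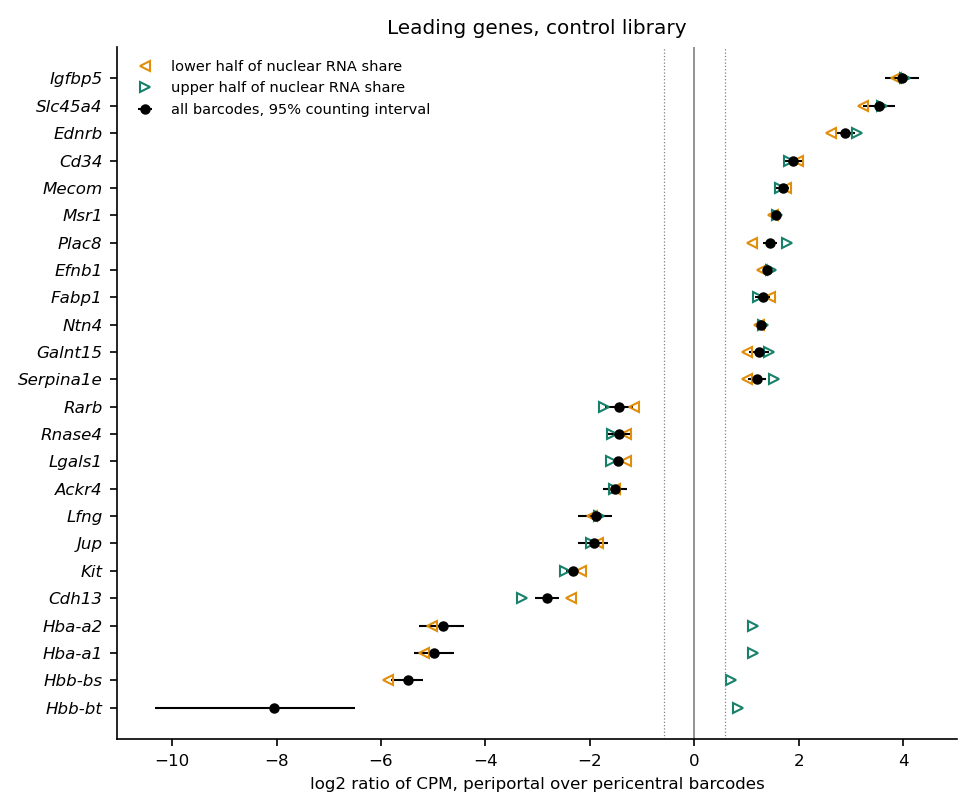
Log2 ratio of CPM in periportal over pericentral barcodes for the 12 highest and 12 lowest genes of at least 50 CPM. Black points have exact 95% counting intervals, open triangles are the same ratio below and above the median nuclear RNA share, and dotted lines mark 1.5-fold. The 4 hemoglobin genes change side above that median, *Hbb-bt* has no value below it, and the other genes stay on their side.

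Genes known from other work as portal or central LSEC genes were followed as lists. The lists were chosen with earlier results of these data known, so their counts are a description and not independent support. Of 12 portal-side genes outside the rule, 9 were at least 1.5-fold higher in periportal barcodes and 0 lower, beside 1.43% and 1.61% of all genes, with a median log2 ratio of 0.78 against −0.02 over all genes. They included *Ednrb*, the endothelin B receptor, at 105 CPM against 14.2 CPM, the Notch ligand *Jag1* at 33.0 against 9.45 CPM, and the laminin chain *Lama4* at 365 against 213 CPM. *Ltbp4*, which holds latent TGF-β in the matrix, was at 940 against 550.0 CPM, and the fatty acid transporter *Cd36* at 1518 against 1010 CPM. *Itgb3*, *Itga9* and *Osmr* had log2 ratios of 0.44, 0.48 and 0.58, under the limit. All 12 were ordered from periportal over in-between to pericentral barcodes. The in-between class is a mixed remainder, so this order is not shown to be a gradient along the lobule. Its cholangiocyte and lymphatic markers summed to 348 CPM, against 9.41 in periportal and 7.56 CPM in pericentral barcodes. Its mitochondrial share had a 90th percentile of 15.6%, against 8.90% and 6.79%. Of 13 central-side genes of at least 20 CPM, 11 were at least 1.5-fold lower and 0 higher, beside the same 1.61% and 1.43%, with a median of −1.39, and all 13 had the opposite order. *Wnt9b*, the second Wnt ligand of the central vein, was at 1.16 against 21.7 CPM on 7 UMIs, a log2 ratio of −4.23 (−5.55 to −3.17). The transcription factor *Lhx6* and the calcitonin receptor partner *Ramp3* had ratios of −3.47 and −3.30. *Thbd*, which encodes the anticoagulant thrombomodulin, had a ratio of −1.39, and *Ptgs1*, a prostaglandin synthase, of −1.20. *Fabp4* and *Tcim* stayed within the limit, at −0.55 and −0.51.

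Of the Notch system, the receptors *Notch1* and *Notch4* were within the 1.5-fold limit, and a ligand and 2 targets were past it. *Notch2* and *Notch3* did not reach 20 CPM and were not counted. *Notch1* was at 406 CPM against 372 CPM and *Notch4* at 75.3 against 67.8 CPM, with log2 ratios of 0.13 and 0.15. *Rbpj*, the DNA-binding partner of the cleaved receptor, had a ratio of 0.04 (−0.12 to 0.21). The target *Hes1* was at 455 CPM in periportal, 368 CPM in in-between and 260 CPM in pericentral barcodes, a ratio of 0.81 (0.74 to 0.87). *Nrarp*, a target and feedback regulator, was at 46.2 against 26.8 CPM, a ratio of 0.79 (0.58 to 0.99). *Hey1*, an arterial target, was sparse, at 5.12 against 1.07 CPM on 31 periportal UMIs. Of 11 Notch genes outside the rule of at least 20 CPM, 3 were higher and 1 lower by the limit, beside 1.43% and 1.61% of all genes. Among ephrins, *Efna1* was at 120 against 76.8 CPM, a ratio of 0.64 (0.52 to 0.77), and the receptor of ephrin-B2, *Ephb4*, was at 199 against 257 CPM, a ratio of −0.37 (−0.46 to −0.28). The other receptors of the list were below 20 CPM in both classes.

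Of 19 genes that define LSECs, 18 were within 1.5-fold, beside 1.43% of all genes higher and 1.61% lower by that limit. Staying within it is thus not particular to these genes. Their median log2 ratio was −0.18, against −0.02 over all genes. The C-type lectin gene *Clec4g* was at 2979 CPM against 3092 CPM and *Maf* at 3229.7 against 3565 CPM. The hyaluronan receptor genes *Stab2* and *Lyve1* were at 1365 against 1699 CPM and 696 against 754 CPM. *Gpr182*, an atypical chemokine receptor, was at 2368 against 1963 CPM, and *Tcn2*, a vitamin B12 carrier, was the gene past the limit, at 495 against 768 CPM. Of 11 large-vessel and capillary genes of at least 20 CPM, 4 were higher and 1 lower, beside 1.43% and 1.61% of all genes. Besides *Cd34*, *Ly6c1* was at 25.6 against 3.25 CPM, *Ly6a* at 1597 against 964 CPM and *Ackr1* at 53.7 against 35.1 CPM, and the lower gene was *Clu*, whose ratio of −1.13 became 0.13 in the held-out set of UMIs. The arterial gene *Mgp* was at 0.165 CPM and the elastic fibre gene *Fbln5* at 0 UMIs in members, which allows up to 0.495 CPM at 3 UMIs. Of 6 arterial and venous specification genes of at least 20 CPM none passed the limit, beside the same 1.43% and 1.61% of all genes. *Sox17* was at 88.5 against 68.3 CPM and *Nr2f2* at 1133 against 1038 CPM.

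Growth factor genes differed at single members. *Vegfc*, the ligand of the lymphatic receptor VEGFR3, was at 35.7 against 6.08 CPM, a log2 ratio of 2.55 (2.24 to 2.86), and *Angpt2*, a Tie2 ligand of remodelling vessels, at 29.4 against 14.1 CPM, a ratio of 1.06 (0.79 to 1.32). The receptors *Kdr*, *Flt1*, *Tek* and *Tie1* had ratios of −0.21, −0.20, −0.28 and −0.01. *Insr*, the insulin receptor, was at 132 against 62.4 CPM, a ratio of 1.08 (0.96 to 1.21), while *Igf1r* had 0.27. *Bmp2*, which LSECs send to hepatocytes to set iron uptake, was at 1647 against 2059.7 CPM, a ratio of −0.32. Of 10 Wnt receptor and target genes of at least 20 CPM, 9 were within the limit, beside 1.43% of all genes higher and 1.61% lower. The gene past it was *Nkd1*, an inhibitor induced by Wnt, lower at 35.7 against 57.0 CPM. *Vcam1*, a leukocyte adhesion molecule, was at 159 against 96.1 CPM, a ratio of 0.73 that was 0.06 below and 1.14 above the median nuclear RNA share. The chemokine gene *Cxcl9* was at 698 against 449 CPM. Of 11 immediate early and heat-shock genes 10 were within the limit, beside the same shares of all genes past it, and *Egr1* was at 115 against 72.8 CPM. Most genes of any kind were within the limit, so these counts are not particular to the lists.

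Several genes outside the rule followed the number of marker UMIs. Just outside the limit, 294 barcodes with 1 marker UMI had 471 CPM (436 to 508) of *Msr1*, and just inside, 197 barcodes with 2 marker UMIs had 576 CPM (533 to 621). The 302 barcodes with 5 or more had 921 CPM (887 to 955). *Ntn4* was at 263, 354 and 721 CPM and *Kit* at 164 (144 to 187), 136 (116 to 159) and 65.9 CPM (57.1 to 75.7) in the same classes. *Clec4g* moved less, at 2751, 2957 and 2899 CPM. Other LSEC genes moved, with *Lyve1* at 492, 648 and 700 CPM and *Stab2* at 1667, 1599 and 1212 CPM. Median UMIs per barcode were higher along these classes too, from 4848 over 6057 to 10876, so the number of marker UMIs also measures depth, and its part in these steps was not tested. Of the 763 members, 197 lie at the limit.

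**Figure D3:**
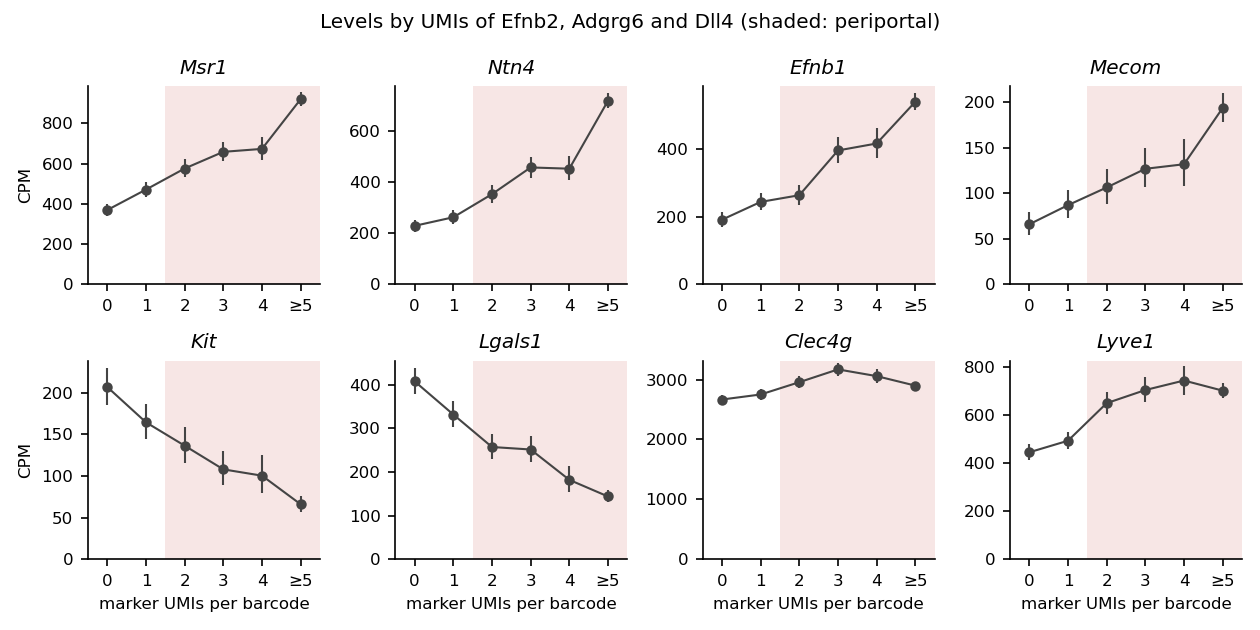
CPM of 8 genes in control endothelial barcodes without the 5 excluded genes, by the sum of *Efnb2*, *Adgrg6* and *Dll4* UMIs per barcode. Bars are exact 95% counting intervals and the shading marks the periportal barcodes. The portal-side genes *Msr1*, *Ntn4* and *Mecom*, the ephrin gene *Efnb1* and the LSEC gene *Lyve1* are higher in the highest than in the lowest class. *Kit* and *Lgals1* are lower, and *Clec4g* moves little.

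The members were not uniform. *Adgrg6* was detected in 196 of them, with a median of 8054 UMIs, and not in 567, with a median of 8623 UMIs, so the first set was not the deeper one. The nuclear RNA share had medians of 2.74% and 2.41%. Between these sets, 221 of 7026 genes (3.15%) were at least 1.5-fold higher and 227 (3.23%) at least 1.5-fold lower, shares that also hold the noise of a smaller set. Members without *Adgrg6* still had 74 of 6942 genes (1.07%) higher and 98 (1.41%) lower than the pericentral barcodes. The 12 highest genes of at least 50 CPM were *Ednrb*, *Atp13a3*, *Igfbp5*, *Ly6c1*, *Jag1*, *Tspan13*, *Vegfc*, *Slc45a4*, *Col5a2*, *Flrt2*, *Insr* and *Fbn1*. *Ednrb* was at 359 CPM with *Adgrg6*, 20.5 CPM without it and 14.2 CPM in pericentral barcodes. Its difference from the pericentral class was thus almost wholly that of the *Adgrg6* barcodes. *Efnb1* was at 919, 289 and 171 CPM, *Ntn4* at 997, 427 and 235 CPM and *Msr1* at 1186, 639 and 261 CPM, so these 3 genes were higher in both sets than in the pericentral class. *Ly6a* was at 2626, 1254 and 964 CPM. *Plvap*, the diaphragm protein of capillary fenestrae, was at 229 CPM with *Adgrg6*, 84.3 CPM without it and 170.5 CPM in pericentral barcodes, so it was lowest in the middle set.

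Several LSEC genes were lower in the *Adgrg6* barcodes. *Lyve1* was at 307 CPM with and 826 CPM without *Adgrg6*, a log2 ratio of −1.43 (−1.57 to −1.29), beside 754 CPM in pericentral barcodes. *Stab2* was at 991 and 1490 CPM, *Clec4g* at 2450 and 3155 CPM and *Maf* at 2682 and 3412 CPM. Of 19 identity genes 5 were at least 1.5-fold lower and 0 higher, beside 3.23% and 3.15% of all genes, with a median of −0.47. Of 10 large-vessel and capillary genes 5 were higher and 0 lower, with a median of 0.57. Hepatocyte RNA also stood higher in this set, with *Alb* at 99.1 CPM (83.9 to 116) with and 72.0 CPM (64.4 to 80.2) without *Adgrg6*, and its part in these differences was not tested. The lowest genes of at least 50 CPM included *Kit*, *Lgals1*, *Flrt1*, *Lyve1*, *Gm46565*, *Calhm6*, *Irf8*, *Gm17167*, *Id4*, *Mmd* and *Mylip*, and *Kit* was at 29.1 and 112 CPM. Not all central-side genes followed, since *Cd9*, *Fabp4* and *Thbd* were higher with *Adgrg6*, at log2 ratios of 0.87, 0.71 and 0.69. Below and above the members' median UMIs, the log2 ratio was −1.63 and −1.38 for *Lyve1*, 1.76 and 1.61 for *Efnb1*, and 4.67 and 3.95 for *Ednrb*. The 3 differences thus kept their direction at both depths. The split was chosen after values had been seen and is a description. *Igfbp5* marked a still smaller set, also chosen after its values were seen: of 28 members with at least 2 *Igfbp5* UMIs, 24 held *Adgrg6*, and they had 1409 CPM (1251 to 1580) of *Efnb1* and 232 CPM (171 to 308) of *Lyve1*, against 413 and 713 CPM in the other members. The defining large-artery gene *Gja5* and the vein gene *Vwf* were kept at 0 by the rule. In the held-out set of UMIs, *Vwf* was found in 10, *Fbln2* in 3 and *Gja5* in 2 of 663 barcodes called periportal. *Vwf* was at 3.35 CPM there, against 3.12 CPM in pericentral barcodes. A count of 0 UMIs is thus not shown to be absence for these genes either.

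**Figure D4:**
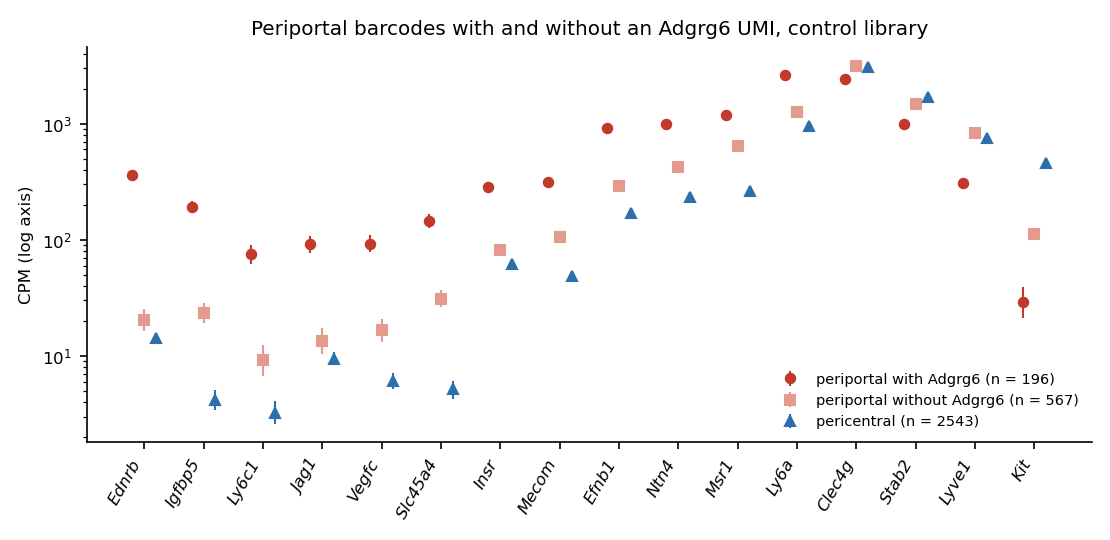
CPM (log axis) of 16 genes in periportal barcodes with and without an *Adgrg6* UMI and in pericentral barcodes, with exact 95% counting intervals. *Ednrb*, *Jag1* and *Ly6c1* are high in the set with *Adgrg6*, *Efnb1*, *Ntn4* and *Msr1* step down over the 3 sets, and *Lyve1* and *Kit* are lowest with *Adgrg6*.

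RNA of hepatocytes was present in the endothelial barcodes at a low level and differed between both ends. *Alb* and 9 other hepatocyte genes summed to 289 CPM (276 to 303) in periportal, 143 CPM (138 to 148) in pericentral and 522 CPM (498 to 546) in the shallow in-between barcodes. Leukocyte barcodes had 407 CPM (334 to 491). Hepatocytes are zoned themselves, so portal and central hepatocyte genes were read apart. *Hal*, the histidine-degrading enzyme of portal hepatocytes, was at 6.44 CPM on 39 UMIs against 1.11 CPM, a log2 ratio of 2.54 (1.79 to 3.30). *Cyp2f2*, a portal cytochrome, was at 1.32 against 0.411 CPM, a ratio of 1.68 (0.14 to 3.18), and *Arg1*, the urea cycle arginase, at 12.7 against 4.15 CPM, a ratio of 1.61 (1.17 to 2.06). The central cytochrome *Cyp2e1* was at 2.31 against 2.10 CPM, a ratio of 0.14 (−0.83 to 1.02), and the central genes *Rgn* and *Mup17* had ratios of 0.27 (−0.41 to 0.90) and 0.12 (−0.77 to 0.94).

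Over both full lists, portal genes made up 37.3% (35.8 to 38.8) of zoned hepatocyte UMIs in periportal and 26.6% (25.8 to 27.5) in pericentral barcodes. The share was higher still in in-between barcodes, at 52.5% (50.6 to 54.4), and in leukocyte barcodes, at 71.8% (63.0 to 79.5). A high portal share was thus not particular to periportal barcodes. *Glul*, *Oat* and *Aldh3a2* dominated the central list, and *Glul* was at 315 CPM in periportal and 212 CPM in pericentral barcodes. Without these 3 and *Ass1* and *Asl*, genes left out after their values were seen, the portal share was 94.3% (92.9 to 95.5) against 90.1% (88.9 to 91.3). Which cells these 5 genes' UMIs came from was not tested, and in leukocyte barcodes leaving them out lowered the central UMIs from 35 to 4. The 5 members with most of them held 18.4% of the portal UMIs of these shortened lists. By the shortened lists the portal share was 94.97% (93.6 to 96.1) in in-between and 90.2% (76.9 to 97.3) in leukocyte barcodes. Whether the hepatocyte UMIs came from free RNA, attached fragments or the cells themselves was not tested.

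**Figure D5:**
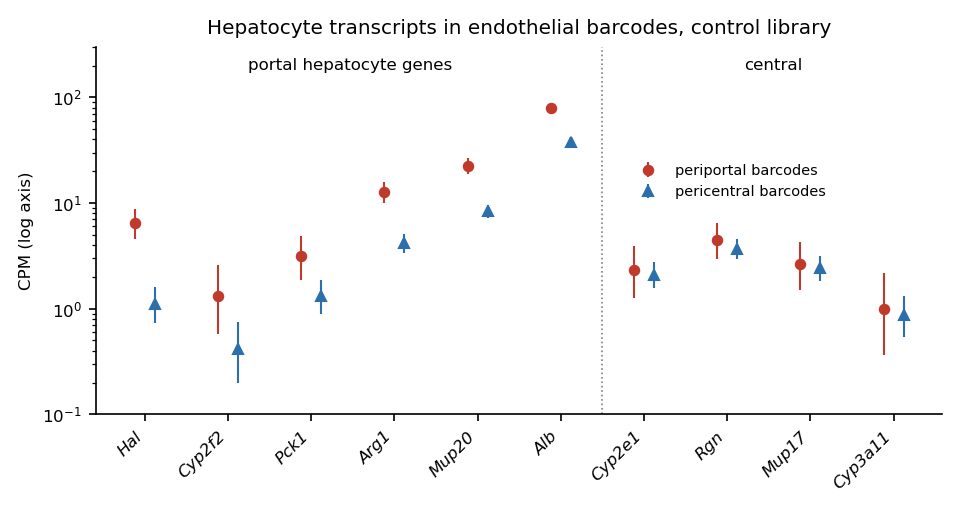
CPM (log axis) of portal and central hepatocyte genes in periportal and pericentral endothelial barcodes of the control library, with exact 95% counting intervals. The 6 portal genes are higher in periportal barcodes, with overlapping intervals for the sparse *Cyp2f2*, and the intervals of the 4 central genes overlap.

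Markers of other cell types were low in the members, which the gate fixes in part, since it admitted no UMI of *Ptprc*, *Adgre1*, *Cd79a* or *Dcn*. The 9 macrophage markers summed to 71.7 CPM (65.1 to 78.7) against 81.6 CPM (78.0 to 85.2) in pericentral barcodes, lymphocyte markers to 7.26 against 6.57 CPM, stellate and mesenchymal markers to 10.7 against 8.71 CPM, and cholangiocyte and lymphatic markers to 9.41 against 7.56 CPM with 5 of 9 at 0 in members. Proliferation markers summed to 276 against 364 CPM. Of 5 such genes of at least 20 CPM, 3 were at least 1.5-fold lower and 0 higher, beside 1.61% and 1.43% of all genes. The log2 ratios were −2.44 for *Top2a*, −1.30 for *Mki67*, −0.94 for *Stmn1*, −0.04 for *Hmgb2* and 0.51 for *Cenpf*. With UMIs split into 2 sets, the first 3 were −0.55, −0.57 and −0.25. The leading genes were also read at both ends of nuclear RNA and depth. Below and above the median nuclear RNA share the log2 ratio was 1.52 and 1.59 for *Msr1*, 1.31 and 1.46 for *Efnb1*, 1.23 and 1.32 for *Ntn4*, and −2.17 and −2.47 for *Kit*. Below and above the median UMIs it was 2.01 and 1.48 for *Msr1* and −2.36 and −2.32 for *Kit*.

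Promoter letters were searched for the binding motif of RBPJ, the factor through which Notch acts on genes, as TGGGAA on both strands (TTCCCA) within 300 bases around the start, from RefSeq on GRCm38.p6. It was absent from these windows of *Efnb2*, *Adgrg6* and *Dll4*. Of the 12 highest genes 10 had a promoter in the table and 4 of these held the motif in at least 1 entry, and so did 4 of 10 among the 12 lowest genes, beside 28.3% of 27025 genes. Those 4 lowest genes were *Hba-a1*, *Hba-a2*, *Lfng* and *Rnase4*. The windows of *Hba-a1* and *Hba-a2* are nearly the same sequence, so they are not separate cases. The 250 bases before the start of *Efnb1* (chrX:99135811-99136060, + strand), a gene on the high side, and of *Lfng* (chr5:140607091-140607340, + strand), on the low side, are shown because both hold it, with the motif in capitals.
*Efnb1*: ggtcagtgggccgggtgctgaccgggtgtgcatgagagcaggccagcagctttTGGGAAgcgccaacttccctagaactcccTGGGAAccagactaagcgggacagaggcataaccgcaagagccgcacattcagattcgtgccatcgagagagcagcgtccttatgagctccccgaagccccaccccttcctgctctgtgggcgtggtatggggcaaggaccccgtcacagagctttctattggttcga
*Lfng*: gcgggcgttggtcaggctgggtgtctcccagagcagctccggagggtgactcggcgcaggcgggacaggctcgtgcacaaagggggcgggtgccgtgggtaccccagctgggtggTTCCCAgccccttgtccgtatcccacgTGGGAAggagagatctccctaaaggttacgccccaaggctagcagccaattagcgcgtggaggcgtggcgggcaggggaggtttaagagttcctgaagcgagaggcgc
The motif thus occurred at genes of both directions, and a match is a run of letters and not a shown binding site.

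The same gates in the *Maf* LSEC-KO library gave 1679 periportal barcodes of 4052 endothelial ones (41.4%, 39.9 to 43.0), with a median of 15204 UMIs, and 531 pericentral ones. Barcodes were also thinned to 3600 UMIs before gating, and those with fewer UMIs were left out, as in the other readings at 3600 UMIs. In the control, 69 of the 763 periportal and 201 of the 2543 pericentral barcodes were under that depth. The 10th percentile of UMIs in the endothelial gate was 2764 in the control and 4090 in *Maf* LSEC-KO, so a larger share of control barcodes was left out. By this reading 567 of 3792 control endothelial barcodes were periportal (15.0%, 13.8 to 16.1). In the *Maf* LSEC-KO library 1232 of 4079 were (30.2%, 28.8 to 31.6), and pericentral barcodes numbered 265 there against 1733 in the control. *Maf* itself was at 80.5 CPM in the *Maf* LSEC-KO periportal and 218 CPM in the pericentral barcodes. The study reports that *Wnt2* is lowered in *Maf* LSEC-KO LSECs, and no position was measured. The classes are thus not shown to mark the same position in both libraries. In *Maf* LSEC-KO, 59 of 7417 genes (0.795%) were at least 1.5-fold higher and 90 (1.21%) at least 1.5-fold lower in periportal barcodes. Of the 12 highest control genes 8 were past the limit in the same direction there, among them *Slc45a4*, *Msr1* and *Mecom* with log2 ratios of 3.198, 1.47 and 1.24. *Ednrb* and *Cd34*, in contrast, had ratios of −0.34 and 0.22, and *Cd34* was at 405 CPM in periportal and 348 CPM in pericentral barcodes of that library. The 8 lowest control genes other than hemoglobin genes were past the limit in the same direction, with *Cdh13* at −2.77 and *Kit* at −0.67. The 4 hemoglobin genes were too, but 1 pericentral barcode of that library had 10 or more erythroid UMIs and 10 barcodes held 99.7% of the class's erythroid UMIs. The differences between the libraries were not tested.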

How the data were processed

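The authors deposited raw UMI counts per gene and barcode for both libraries, made with Cell Ranger 6.0.2 on mm10 and filtered to at least 500 UMIs per barcode. Their processing notes also name Seurat 5.0.1, whose clusters and names were not used here. The deposited counts were summed over the barcodes of each gate and scaled to CPM, with mitochondrial and ribosomal protein genes left out of the total, in Python 3.11.15 with numpy 2.4.6, scipy 1.17.1 and pandas 2.3.3. The libraries held 47681895 and 89872764 UMIs over 32285 genes. Intervals are exact 95% Poisson or Clopper-Pearson intervals and cover counting error only. Those of summed UMIs do not cover the spread between barcodes. Their script was tested on simulated data.

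The members and gene lists were chosen with earlier results of these data known. Genes were named if they were in the rule, if they were among the 12 highest or 12 lowest ratios at 50 CPM or more, or if they had a large ratio or defining role in a list. Genes were counted at 20 CPM or more and past 1.5-fold. Scrublet (scanpy 1.11.5) gave each barcode a doublet score, its automatic limit called 0 barcodes, and the 197 highest scores (0.8% per 1000 barcodes) were left out as an alternative, 12 of them periportal. Free RNA was not subtracted. Some single-gene results are not reported here. Gene positions are from GENCODE M21 and promoters from RefSeq.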

Additional observations from a re-analysis of the deposited data

How the results depend on the processing

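The periportal set numbered 488 without *Dll4* in the rule, 317 below and 446 above the median nuclear RNA share, 351 at low hepatocyte RNA, and 386 below and 377 above the median UMIs. Genes past 1.5-fold, 99 higher and 112 lower, numbered 46 and 61 at 50 CPM, 2129 and 1047 with no minimum level, 162 and 172 against pericentral barcodes with under 2 marker UMIs, and 240 and 262 below the median UMIs. The nuclear RNA ratio of 1.16 was 1.32 as a mean per barcode, 1.19 thinned to 3600 UMIs, 1.13 at 3 marker UMIs, and 1.14, 1.15 and 1.14 in a rule without *Efnb2*, *Adgrg6* or *Dll4*. It was 1.18 with *Wnt2* at 2 UMIs or more, 1.15 against pericentral barcodes with under 2 marker UMIs, 1.02 below and 1.12 above the median nuclear RNA share, 1.14 within mitochondrial limits, 1.17 at low hepatocyte RNA and 1.12 with UMIs split into 2 sets. The values of 1.02 and 1.12 come from barcodes split on the same 2 RNAs that the ratio reads, so they are partly fixed by that split. It was 1.41 below and 1.01 above the median UMIs, 1.19 scaled without *Gm42418*, *AY036118* and *Malat1*, and 1.16 without *Igfbp5* barcodes. The portal share of hepatocyte UMIs, 37.3%, was 41.7% as a mean per barcode, 39.0% thinned, 18.2% at low hepatocyte RNA, 33.9% with UMIs split, 46.7% below and 33.0% above the median UMIs, and 94.3% without *Glul*, *Oat*, *Aldh3a2*, *Ass1* and *Asl*. The 18.2% is partly fixed too, since that set was chosen by its hepatocyte RNA. Among the genes past 1.5-fold, 7 log2 ratios reversed under an alternative. At low hepatocyte RNA *Cd274* was at −0.062 and *Ass1* at −0.16, with UMIs split *Clu* was at 0.13, and above the median nuclear RNA share *Hbb-bt*, *Hbb-bs*, *Hba-a1* and *Hba-a2* were at 0.84, 0.70, 1.12 and 1.13. The causes were not tested. Of 64 named genes past 1.5-fold, 57 kept their sign under every alternative that gave a value, and of 120 within 1.5-fold, 38 had another sign under at least 1 alternative, *Lyve1* among them (−0.31 to 0.14).

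The sets above the median nuclear RNA share and on either side of the median UMIs, the other scaling, the set without *Igfbp5* barcodes, the shortened hepatocyte lists, thinning before the gates and the leukocyte background were chosen after seeing the data. No paired analysis was possible because each group is 1 library, and for the same reason leaving out a library gives no comparison. At this depth genes under 20 CPM, such as *Hey1*, rest on few UMIs.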
